A study of Mus musculus with 7 samples.

Results

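Voltage-gated ion channels are membrane pores that open and close with the voltage across a neuron's membrane. The 36 genes described here were taken by symbol from the 55450 genes of the deposited tables. They are 4 genes of sodium channel pore (alpha) subunits, 3 of sodium channel beta subunits, 14 of potassium and HCN channels, 8 of calcium channel pore (alpha1) subunits and 7 of calcium channel auxiliary subunits. They are a fixed list of symbols, drawn up with earlier results of these data known, and all 36 passed the filter on low counts.

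Polyadenylated RNA was sequenced from the cerebella of C57BL/6 mice at postnatal day 15. WT cerebella gave 3 libraries, and cerebella of 4 L3mbtl3 KO/+ mice, which carry 1 knockout and 1 wild-type allele, gave the other 4. L3mbtl3 codes for an MBT-domain reader of methylated histones, and WT is set against KO/+ to see what the loss of 1 allele does to cerebellar transcripts. Which part of the gene was deleted, the litters and whether each WT cerebellum came from its own mouse are not in the labels, so that p-values measure only the spread between these samples.

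Sodium channels carry the rising phase of the action potential, and their beta subunits set how fast they close and reopen. Potassium channels of the Kv3 group repolarise fast-spiking neurons, Kv1 and Kv4 channels limit excitability near threshold, and HCN channels pass a current that is switched on by hyperpolarisation. Calcium channels of the Cav2 group trigger transmitter release, T-type channels open at low voltage and drive bursts, and the beta and alpha2delta subunits bring calcium channels to the membrane. In the cerebellum, Purkinje cells fire at high rates with these channels, and granule neurons are still being added and are maturing at postnatal day 15.

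The libraries held between 29248342 and 43761782 counts, of which the 36 channel genes took from 0.381% to 0.479%. WT libraries held 22.6, 26.8 and 23.2 CPM (a gene's counts scaled to a common library size) of the targeted gene L3mbtl3, and KO/+ libraries 19.7, 17.4, 22.3 and 23.0 CPM. The groups overlapped, so this level is no check of the genotype labels (log2 fold change -0.23, SE 0.12; edgeR adjusted p = 0.957; exact two-sided permutation p = 0.171 over 35 splits). Markers of Purkinje cells, granule neurons and GABAergic interneurons were present in every library, with all 5 of 5 detected in each list. WT replicate 3 stood apart from the other libraries in many channel genes, and the plot of fold changes gives each of the 36 with and without it.

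No channel gene passed the test between genotypes. Of the 36 channel genes, 0 passed edgeR's quasi-likelihood test at a Benjamini-Hochberg adjusted p under 0.05, as did 0% of the 16813 genes tested. DESeq2 also called 0, but gave no adjusted p for Kcnc2. At an unadjusted p under 0.05 there were 3 in edgeR, namely Scn3a, Kcnc2 and Kcnq3, all with lower values in KO/+, beside 3.15% of all genes. DESeq2 gave 4 at that level and limma-voom 1, beside 597 and 497 of the 16813 genes. The edgeR count depended on single libraries, as did that of all genes. It was 5 without WT replicate 1, beside 605 of 16994 genes. Without KO/+ replicate 1 or 2 it was 0, beside 180 of 16796 and 180 of 16649 genes. Without KO/+ replicate 3 it was 1, beside 413 of 16758 genes, and without KO/+ replicate 4 it was 7, beside 1562 of 16763.

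Log2 fold changes were negative for 31 of the 36 channel genes and positive for 5, with a median of -0.13, while 51.2% of all genes tested were negative and 48.8% positive, with a median of -0.00472. Over the 36 together this lean rested on WT replicate 3, but not in the calcium channel pore genes, whose median went from -0.15 to -0.24 without it. The medians of the other families rose. They went from -0.33 to -0.04 (sodium pore), -0.19 to 0.12 (sodium beta), -0.10 to 0.08 (potassium and HCN) and -0.12 to -0.01 (calcium auxiliary). Without WT replicate 3, 18 of the 36 were negative and 18 positive, with a median of 0.000565, beside 49.4% negative and 50.6% positive among all genes, and 17 of the 36 changed sign. The 95% interval of the fold change lay within 1.5-fold in either direction for 19 genes and within 2-fold for 30. The 6 with wider intervals were Scn1a, Scn3a, Scn4b, Kcna4, Kcnc2 and Cacna1h. At an unadjusted p under 0.05 that comparison without WT replicate 3 held 2 channel genes with higher values in KO/+ (Scn2b and Kcnc4) and 1 with lower values (Kcnb2), beside 3.17% and 2.58% of all genes, and 0 of the 36 passed the edgeR adjusted threshold, beside 0.00589% of all genes in the higher direction. The intervals of 23 genes then lay within 1.5-fold and those of 35 within 2-fold. On the log2(TPM + 1) scale (TPM being abundance scaled by transcript length and library) 35 of the 36 were negative, beside 62.6% of all genes. In the CPM values, 0 of the 36 had genotypes that did not overlap, beside 2.16% of all genes with higher and 1.80% with lower values in KO/+ (3.96% in all).

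**Figure D1:**
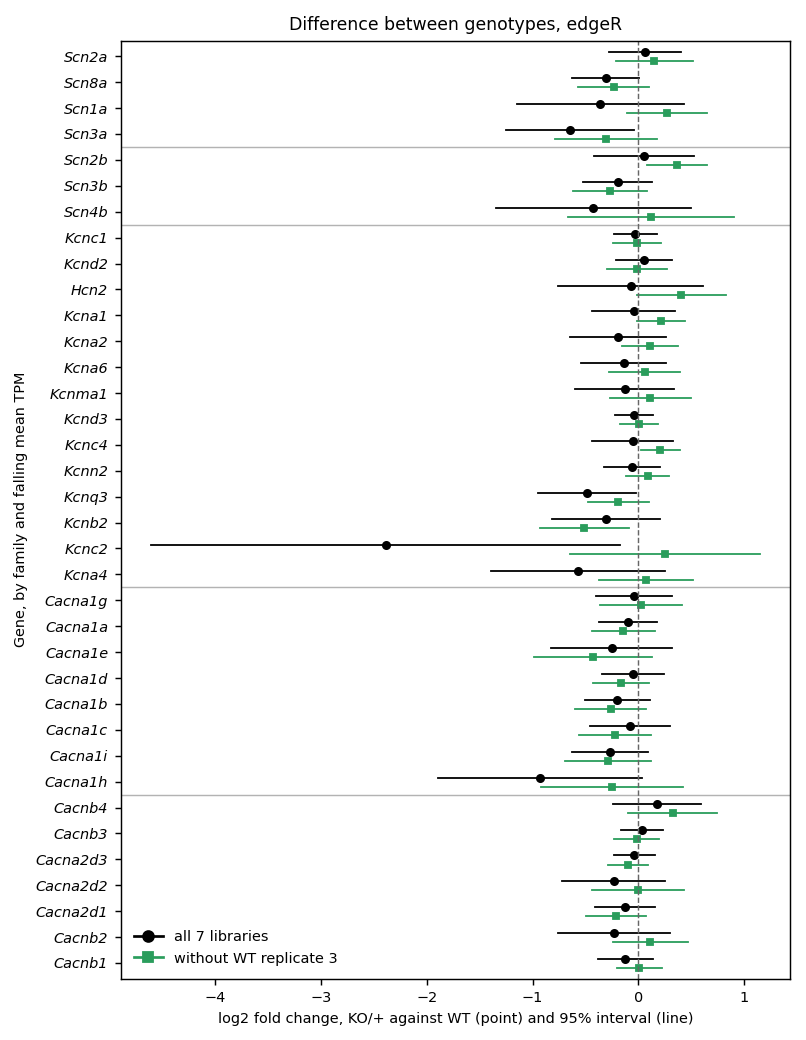
Log2 fold change of each channel gene in KO/+ against WT (points) with its 95% interval (lines), from edgeR over all 7 libraries (black circles) and without WT replicate 3 (green squares), by family in order of falling mean TPM. The green points lie on both sides of 0 (18 and 18), and the interval of Kcnc2 is the widest with all libraries.

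The levels, compared between genes in TPM, which is scaled by transcript length, spanned from a mean of 1.33 TPM (Kcna4) to 117 TPM (Cacna1g). The 3 highest genes were Cacna1g, Cacna1a and Kcnc1, which encode pore subunits of T-type, P/Q-type and Kv3 channels. Over transcripts annotated as coding, Kcnc1 was first at a mean of 104 TPM, before Cacna1g (71.0 TPM) and Cacna1a (61.5 TPM). In 7 of 7 libraries Kcnc1 lay above Kcnd2, the next potassium channel gene, with ranges that did not overlap. Of the 31 pairs of neighbours in the order of gene levels within a family, 7 had ranges that did not overlap.

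**Figure D2:**
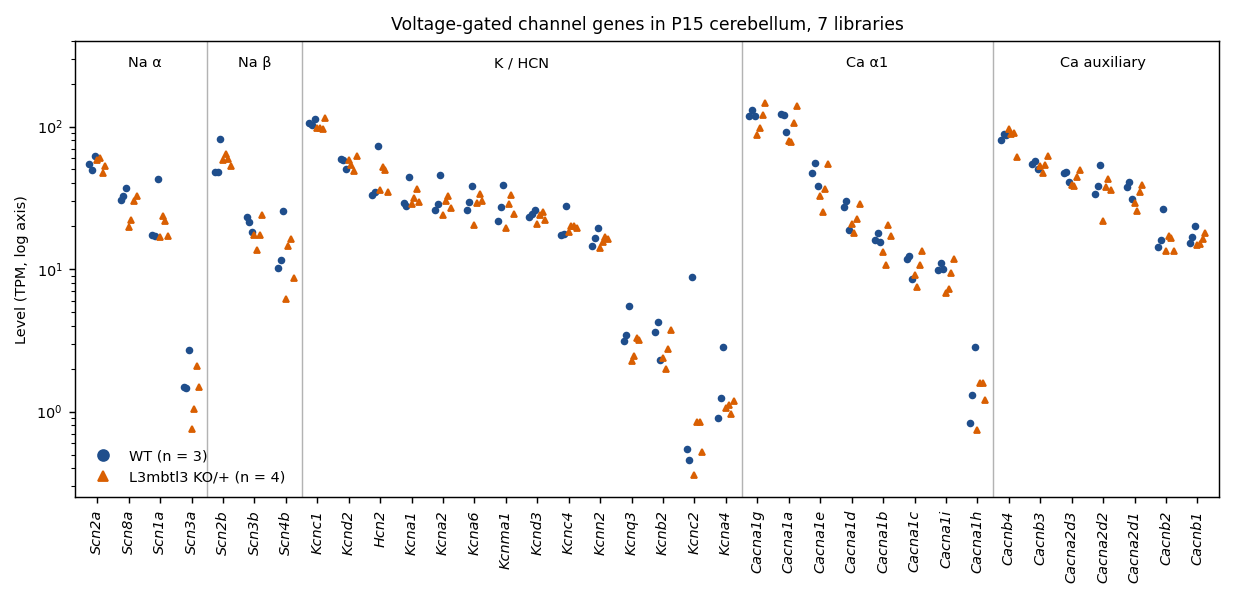
Level of each channel gene in TPM on a log axis, with 1 point per library (blue circles WT, orange triangles KO/+), by family in order of falling mean. Circles and triangles overlap for every gene, and single WT points stand well above the rest for Kcnc2, Kcna4, Scn1a and Scn4b.

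Among the sodium channel pore genes, Scn2a was highest (55.03 TPM in the mean of 7 libraries), followed by Scn8a (29.1 TPM), Scn1a (22.3 TPM) and Scn3a (1.57 TPM). The ranges of Scn2a and Scn8a did not overlap, nor did those of Scn1a and Scn3a, while Scn8a exceeded Scn1a in 5 of 7 libraries only. Scn1a, Scn2a and Scn3a are neighbours on chromosome 2 (GRCm38), where Scn3a spans 65457118 to 65567627 on the minus strand, Scn2a 65620771 to 65767447 on the plus strand and Scn1a 66270778 to 66440840 on the minus strand. Scn8a lies on chromosome 15, from 100869858 to 101045938.

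Scn2a, the channel of axons of immature and unmyelinated neurons, was at 54.96, 49.8 and 61.7 TPM in WT and at 58.0, 60.6, 47.4 and 52.7 TPM in KO/+ libraries. Both groups covered nearly the same range. Its log2 fold change was 0.07 (SE 0.15), and the 95% interval of -0.28 to 0.41 excludes a change of 1.5-fold in either direction.

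Scn8a, which carries the sodium current of the mature axon initial segment and nodes and of repetitive Purkinje firing, was at 30.4, 32.6 and 36.8 TPM in WT. In KO/+ libraries it was at 19.6, 22.0, 29.8 and 32.7 TPM. KO/+ replicates 1 and 2 were lowest and KO/+ replicate 4 lay among the WT values, so that the groups overlapped. The log2 fold change came to -0.31 (SE 0.14; 95% interval -0.62 to 0.01; unadjusted p = 0.0552, edgeR adjusted p = 0.957), and it was -0.23 without WT replicate 3.

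Scn3a, the pore gene that is known to be highest before birth, was at 1.49, 1.46 and 2.69 TPM in WT and at 0.76, 1.05, 2.09 and 1.48 TPM in KO/+ libraries. WT replicate 3 was highest and KO/+ replicate 1 lowest, with the other TPM values mixed between genotypes. The test used counts, in which WT libraries held 8.74, 8.12 and 15.2 CPM and KO/+ libraries 4.92, 6.38, 7.54 and 8.52 CPM. On that scale only KO/+ replicate 4 lay above a WT library. The log2 fold change was -0.65 (SE 0.26; unadjusted p = 0.0387, edgeR adjusted p = 0.957). Without WT replicate 3 it was -0.31 (95% interval -0.79 to 0.18).

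Scn1a, which serves fast-spiking interneurons and Purkinje cells, was at 17.4, 17.1 and 42.6 TPM in WT and at 16.7, 23.5, 21.6 and 17.0 TPM in KO/+ libraries. WT replicate 3 held 2.25 times the mean of the other 6 libraries. A log2 fold change of -0.36 (SE 0.34) with all libraries became 0.27 without that library (95% interval -0.10 to 0.64).

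Scn8a and Scn2a each carry a pair of neighbouring exon copies of which a transcript holds 1, known as the neonatal (upstream) and adult (downstream) forms, which code for part of the voltage sensor of the channel's first domain. They are described because the Scn8a transcripts with the downstream copy held the smallest p of all channel transcripts.

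Scn8a transcripts with the upstream copy made up 30.1%, 33.7% and 23.7% of those with either copy in WT. In KO/+ libraries the share was 31.0%, 25.8%, 33.1% and 44.2%. The downstream form was the larger one in every library, and KO/+ replicate 4 had the highest upstream share. The groups overlapped, at 29.2% ± 5.10 (SD, n = 3) and 33.5% ± 7.76 (SD, n = 4). These shares were chosen for display after their values were seen and have no test. They also depend on the annotation, since TPM divides by length. The upstream set includes short transcripts such as Scn8a-216 (514 bases, a retained intron) and Scn8a-219 (1618 bases). The downstream set is Scn8a-203, Scn8a-204 and Scn8a-205, of 7030, 11436 and 11232 bases.

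The transcript Scn8a-205, which holds the downstream copy, was at 13.7, 12.8 and 17.2 TPM in WT and at 7.68, 10.5, 11.9 and 10.1 TPM in KO/+ libraries. All WT values lay above all KO/+ values, as they did for 2.14% of all transcripts tested. The log2 fold change was -0.48 (SE 0.16; unadjusted p = 0.0158, edgeR adjusted p = 0.9997 over 44375 transcripts). Scn8a-204, with the same copy, had a log2 fold change of -0.29 (SE 0.12; unadjusted p = 0.0487), and Scn8a-201, with the upstream copy, had 0.03. The difference between these transcripts was not tested.

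For Scn2a the upstream share was between 76.6% and 82.6% in all libraries. That figure depends on the annotation, in which the transcripts with the downstream copy are Scn2a-204, with 11 exons and 1810 bases, and Scn2a-205, with 27 exons and 6348 bases. Scn2a-204, at 6.95 to 11.0 TPM, held most of the downstream total of 7.81 to 13.6 TPM, and its TPM is divided by a shorter length than that of Scn2a-202 (8690 bases).

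A 64-base exon of Scn1a at chr2:66293832-66293895 (minus strand) is shown because it is held by the transcript Scn1a-208, which is annotated as a target of nonsense-mediated decay and did not follow the rest of the gene in WT replicate 3. Capitals mark the exon, and 12 bases of each neighbouring exon are in lower case.
Scn1a exon: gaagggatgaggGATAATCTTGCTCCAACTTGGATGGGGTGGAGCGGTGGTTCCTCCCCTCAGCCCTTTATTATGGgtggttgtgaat

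The length of 64 bases is no multiple of 3, so the exon shifts the reading frame, and in the frame of Scn1a-201 the first stop codon begins at base 129 of the exon that follows. Scn1a-208 was at 3.23, 2.71 and 3.84 TPM in WT and at 2.96, 3.54, 3.07 and 3.22 TPM in KO/+ libraries. Transcripts that skip the exon were at 14.1, 14.3 and 38.4 TPM in WT and at 13.7, 19.9, 18.5 and 13.7 TPM in KO/+ libraries. The share with the exon was therefore lowest in WT replicate 3, at 9.10%, and lay between 14.3% and 19.0% elsewhere. Scn1a-208 begins within the gene and has 13 exons, and reads outside the 64-base exon also bear on its estimate.

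Among the beta subunit genes, Scn2b was highest at a mean of 58.8 TPM, above Scn3b (19.3 TPM) in 7 of 7 libraries without overlap. Scn4b followed at 13.2 TPM, with a range that overlapped Scn3b. Scn2b and Scn4b are neighbours on chromosome 9, from 45117782 to 45130070 and from 45138395 to 45154152, both on the plus strand.

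Scn2b, whose product is bound to the pore by a disulphide bridge, was at 47.6, 47.9 and 81.2 TPM in WT and at 58.3, 64.6, 59.0 and 52.8 TPM in KO/+ libraries. WT replicate 3 was above every other library and the other WT libraries were below every KO/+ library. KO/+ differed from WT by a log2 fold change of 0.05 (SE 0.21) with all libraries and 0.36 without WT replicate 3 (95% interval 0.08 to 0.65; unadjusted p = 0.0193, edgeR adjusted p = 0.598).

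Scn4b, which supplies the blocking peptide of the resurgent sodium current of Purkinje cells, was at 10.2, 11.5 and 25.5 TPM in WT and at 6.13, 14.5, 16.1 and 8.69 TPM in KO/+ libraries. The highest library held 4.16 times the level of the lowest. Over all libraries a log2 fold change of -0.43 (SE 0.40) was found, which became 0.12 without WT replicate 3.

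Scn3b, a subunit that does not bind covalently, was at 23.0, 21.5 and 18.3 TPM in WT and at 17.3, 13.6, 17.4 and 24.0 TPM in KO/+ libraries. It was lower in WT replicate 3 than in the other WT libraries, opposite to Scn2b and Scn4b. Its log2 fold change was -0.19 (SE 0.14, and -0.27 without WT replicate 3).

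Of the 14 potassium and HCN channel genes, 13 had negative log2 fold changes with all libraries and 4 without WT replicate 3. In WT replicate 3, 11 of the 14 were higher than in any other library. Kcnc1, the Kv3 pore gene of granule neurons and fast-spiking cells, was at 107, 102 and 114 TPM in WT and at 98.2, 97.2, 95.4 and 115 TPM in KO/+ libraries. Its libraries differed by at most 1.21 times, the narrowest range of the 36 genes. The log2 fold change was -0.03 with an SE of 0.09 and a 95% interval of -0.23 to 0.18.

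Kcnd2, the A-type channel of granule neurons, was at 59.6, 58.0 and 50.2 TPM in WT and at 58.6, 53.6, 48.9 and 62.5 TPM in KO/+ libraries. The groups overlapped nearly fully, with a log2 fold change between -0.21 and 0.32 (95% interval; estimate 0.06, SE 0.12). For Kcnd3, the other A-type channel, it was -0.04 with an SE of 0.08, the smallest SE of the 36.

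Kcnc2, on chromosome 10 from 112271121 to 112467024, encodes a Kv3 subunit known from fast-spiking interneurons. It was at 0.55, 0.46 and 8.73 TPM in WT and at 0.36, 0.85, 0.84 and 0.52 TPM in KO/+ libraries. WT replicate 3 held 14.6 times the mean of the other 6 libraries, and the other WT values lay among the KO/+ values. The counts behind these levels ran from 30 to 1036. With all libraries the log2 fold change was -2.39 (SE 0.97; unadjusted p = 0.0375, edgeR adjusted p = 0.957), and it was 0.25 without that library (95% interval -0.65 to 1.15).

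Kcnq3, a subunit of the M-current channel that damps repeated firing, was at 3.13, 3.46 and 5.49 TPM in WT and at 2.25, 2.44, 3.30 and 3.16 TPM in KO/+ libraries. KO/+ replicates 1 and 2 were lowest and WT replicate 3 highest, and KO/+ replicates 3 and 4 lay above WT replicate 1. The log2 fold change was -0.49 (SE 0.20; unadjusted p = 0.0408, edgeR adjusted p = 0.957) and -0.19 without WT replicate 3 (95% interval -0.48 to 0.10).

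The other potassium channel genes are given by range. The Kv1 genes Kcna1 and Kcna2, which encode low-threshold channels of basket cell terminals and axons, ran from 27.8 to 44.3 TPM and from 24.2 to 45.9 TPM, and Kcna4 from 0.90 to 2.84 TPM. Kcna6 ran from 20.4 to 38.1 TPM, of which 7.0% was in transcripts annotated as coding, and Kcna6-201, annotated as a target of nonsense-mediated decay, made up 65.8% of the gene. Kcnc4 ran from 17.4 to 27.6 TPM, and Kcnma1, the calcium- and voltage-gated BK channel of Purkinje cells, from 19.4 to 38.8 TPM. Hcn2, the HCN channel gene of the list, ran from 33.0 to 72.8 TPM, and Kcnn2, a calcium-gated channel of Purkinje cells, from 14.1 to 19.4 TPM. Each of these was highest in WT replicate 3, and without it Kcnc4 had a log2 fold change of 0.21 (95% interval 0.02 to 0.39; unadjusted p = 0.0317, edgeR adjusted p = 0.598). Kcnb2, a delayed rectifier, went the other way, with 3.62, 4.24 and 2.31 TPM in WT and 2.38, 1.99, 2.77 and 3.72 TPM in KO/+ libraries, and had a log2 fold change of -0.51 without WT replicate 3 (95% interval -0.93 to -0.09; unadjusted p = 0.0226, edgeR adjusted p = 0.598).

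All 8 calcium channel pore genes had negative log2 fold changes, from -0.93 (Cacna1h) to -0.04 (Cacna1g), and 7 of them did so without WT replicate 3, where Cacna1g was at 0.03. None passed an unadjusted p of 0.05. Only Cacna1h was highest in WT replicate 3. Short transcripts not annotated as coding hold a large share of TPM in Cacna1a and Cacna1g, the highest of these genes, since TPM divides by length. Levels over coding transcripts are therefore given beside the gene totals for both. Cacna1d, an L-type gene, ran from 18.0 to 29.98 TPM with 24.2% in coding transcripts, and Cacna1c, the other L-type gene, from 7.44 to 13.3 TPM with 86.3%. Much of the rest of Cacna1d was in longer transcripts annotated as retained introns. These were Cacna1d-212 (4918 bases, 36.1% of the gene in the mean) and Cacna1d-203 (3503 bases, 25.95%). The log2 fold changes of Cacna1d and Cacna1c were -0.05 (SE 0.13) and -0.08 (SE 0.17). Coding transcripts held 95.7% of Cacna1b, 91.5% of Cacna1e, 76.4% of Cacna1h and 99.8% of Cacna1i.

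Cacna1a, the P/Q-type pore gene on chromosome 8 from 84388440 to 84640246, was at 123, 121 and 91.6 TPM in WT and at 78.9, 78.4, 106 and 139 TPM in KO/+ libraries. Over coding transcripts, 58.4% of the total, it was at 65.8, 68.4 and 60.9 TPM in WT and at 49.8, 52.0, 59.0 and 74.8 TPM in KO/+ libraries. KO/+ replicates 1 and 2 were lowest and KO/+ replicate 4 highest on both scales. Its log2 fold change, -0.10 (SE 0.12), had a 95% interval of -0.37 to 0.18.

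Of the other Cav2 genes, Cacna1e (R-type) ran from 25.1 to 55.7 TPM and Cacna1b (N-type) from 10.7 to 20.5 TPM, with log2 fold changes of -0.25 (SE 0.25) and -0.20 (SE 0.13). Without WT replicate 3 that of Cacna1e was -0.43 (SE 0.24). Over coding transcripts Cacna1a made up from 49.8% to 61.3% of the summed TPM of these 3 genes, Cacna1e from 26.8% to 37.4% and Cacna1b from 11.4% to 17.0%. Cacna1a held the largest part in every library.

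Cacna1g, the T-type pore gene with the highest gene total of the 36, was at 118, 130 and 118 TPM in WT and at 86.7, 96.9, 121 and 146 TPM in KO/+ libraries. Over coding transcripts it was at 65.5, 74.1 and 80.6 TPM in WT and at 46.9, 67.0, 80.5 and 82.4 TPM in KO/+ libraries. KO/+ replicate 1 was lowest on both scales, and the groups overlapped. Its log2 fold change, -0.04 (SE 0.16), had a 95% interval of -0.40 to 0.32.

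The other T-type genes were lower. Cacna1i was at 9.84, 11.1 and 9.97 TPM in WT and at 6.83, 7.20, 9.42 and 11.7 TPM in KO/+ libraries, with 3 of 4 KO/+ libraries below every WT library and KO/+ replicate 4 above all of them (log2 fold change -0.27, SE 0.16). Cacna1h was at 0.83, 1.3 and 2.85 TPM in WT and at 0.74, 1.58, 1.58 and 1.21 TPM in KO/+ libraries. Its log2 fold change of -0.93 (SE 0.42; unadjusted p = 0.0568) became -0.25 without WT replicate 3 (95% interval -0.93 to 0.42).

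Coding transcripts of Cacna1g differ by a 69-base exon at chr11:94439709-94439777 (minus strand), shown because the forms with and without it took different orders over the libraries. Capitals mark the exon, and 12 bases of each neighbouring exon are in lower case.
Cacna1g exon: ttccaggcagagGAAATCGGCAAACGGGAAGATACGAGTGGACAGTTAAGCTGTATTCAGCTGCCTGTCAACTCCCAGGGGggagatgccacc

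Transcripts with this exon were at 28.9, 31.2 and 22.2 TPM in WT and at 22.3, 19.5, 26.3 and 36.02 TPM in KO/+ libraries. Those without it were at 36.6, 42.9 and 58.4 TPM in WT and at 24.7, 47.5, 54.2 and 46.4 TPM in KO/+ libraries. WT replicate 3 was highest for the form without the exon and below the other WT libraries for the form with it. WT libraries had the exon in 44.1%, 42.2% and 27.6% of these transcripts, and KO/+ libraries in 47.5%, 29.1%, 32.7% and 43.7%, or 37.9% ± 9.02 (SD, n = 3) and 38.2% ± 8.76 (SD, n = 4). A 54-base exon of the same gene ran in the same order of libraries at the low end, with 19.99% in WT replicate 3 and from 21.5% to 32.5% elsewhere. Both shares are summed in part from the same transcripts, so their like order is not a second observation. Cacna1g-209 lacks both exons and was at 47.5 TPM in WT replicate 3. That was most of the 58.4 TPM without the 69-base exon and of the 64.45 TPM without the 54-base exon. For both exons the spread within each genotype exceeded the difference between the genotype means.

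Beside these shares, the Purkinje cell markers summed to 3289, 3445 and 3951 TPM in WT and to 3518, 4539, 3770 and 3238 TPM in KO/+ libraries. Among them Calb1 was at 360, 405 and 527 TPM in WT and at 421, 606, 562 and 388 TPM in KO/+ libraries, which put WT replicate 3 and KO/+ replicates 2 and 3, the libraries with the lowest shares of the 69-base exon, highest. Car8 and Ppp1r17 had the same 3 libraries on top. Pcp2 did not, with 2085 TPM in WT replicate 3 and 2080 TPM in KO/+ replicate 3 below WT replicate 1 (2108 TPM) and KO/+ replicate 1 (2204 TPM), nor did Itpr1, where KO/+ replicate 3 (392 TPM) was below WT replicate 2 (405 TPM). The part of the makeup of the tissue in the exon shares was not tested. In such bulk RNA, fewer cells of a type and less RNA per cell cannot be told apart.

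**Figure D3:**
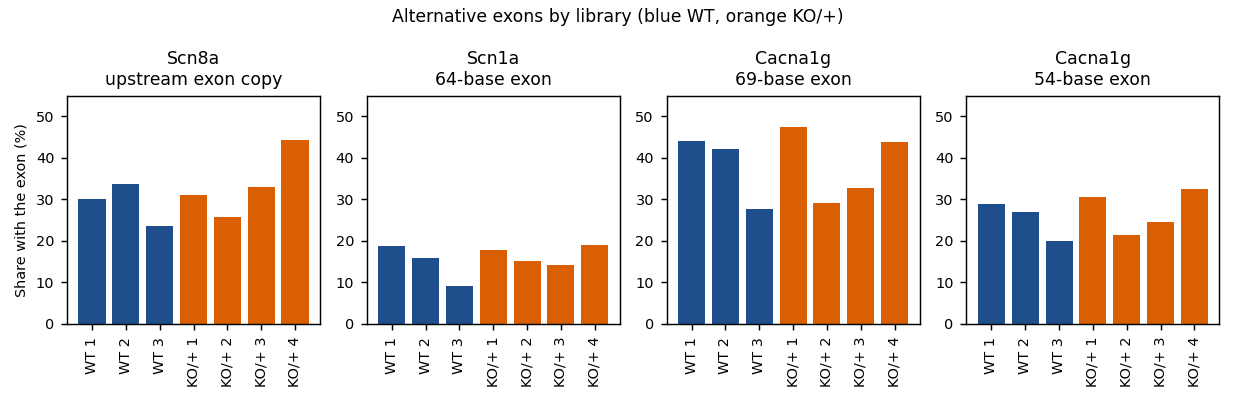
Share of transcripts with an alternative exon in percent, 1 bar per library (blue WT, orange KO/+): the upstream exon copy of Scn8a, the 64-base exon of Scn1a, and the 69-base and 54-base exons of Cacna1g. WT replicate 3 has the lowest bar in each of the 4 panels, and the genotypes overlap in all. The panels are a selection, and both Cacna1g panels draw in part on the same transcripts. Of the shares not drawn, the Scn2a upstream copy was lowest in WT replicate 3 (76.6%). That of a 68-base exon of Scn8a was lowest in KO/+ replicate 1 (5.14%, with 5.55% in WT replicate 3).

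Of the 7 auxiliary subunit genes, 5 had negative log2 fold changes with all libraries and 4 without WT replicate 3. Cacnb4, the beta subunit gene that is mutated in the lethargic mouse, was highest in the mean, at 80.4, 88.5 and 87.2 TPM in WT and at 95.4, 88.8, 90.7 and 61.3 TPM in KO/+ libraries. The low value of KO/+ replicate 4 rests in part on a 208-base processed transcript, Cacnb4-205, which was at 13.5 TPM there and between 19.9 and 40.3 TPM elsewhere. These TPM rest on 1 count in KO/+ replicate 4 and 2 to 4 counts in the other libraries, too few to be tested, although they make up 32.9% of the gene in the mean. Over coding transcripts Cacnb4 was at 49.2, 48.2 and 63.6 TPM in WT and at 63.8, 67.0, 53.3 and 47.8 TPM in KO/+ libraries. On that scale WT replicate 3 and KO/+ replicates 1 and 2 were highest. Its log2 fold change, 0.18 (SE 0.18), had a 95% interval of -0.24 to 0.59, and it was 0.33 without WT replicate 3 (interval -0.10 to 0.75).

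Cacnb3, the next beta subunit gene, was at 55.03, 57.4 and 50.0 TPM in WT and at 53.2, 47.3, 53.6 and 62.6 TPM in KO/+ libraries. Its genotypes overlapped, with a log2 fold change between -0.17 and 0.23 (95% interval; estimate 0.03, SE 0.09). Over coding transcripts Cacnb4 made up from 37.0% to 49.1% of the 4 beta subunit genes and Cacnb3 from 32.3% to 43.6%.

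Cacnb1 was at 15.2, 16.7 and 20 TPM in WT and at 14.7, 15.0, 16.2 and 18.0 TPM in KO/+ libraries (log2 fold change -0.12, SE 0.11). Cacnb2 ran from 13.3 to 26.5 TPM, with WT replicate 3 at the top of both genes.

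Cacna2d2, the alpha2delta gene of Purkinje cells that is mutated in the ducky mouse, was at 33.5, 38.1 and 54.1 TPM in WT and at 21.9, 37.4, 42.8 and 35.8 TPM in KO/+ libraries. KO/+ replicate 1 was lowest and WT replicate 3 highest, with the other libraries close together. A log2 fold change of -0.23 (SE 0.21) became -0.01 without WT replicate 3 (95% interval -0.44 to 0.43). Cacna2d1 and Cacna2d3 ran from 25.7 to 40.7 TPM and from 38.1 to 49.5 TPM, with log2 fold changes of -0.13 (SE 0.12) and -0.04 (SE 0.08).

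**Figure D4:**
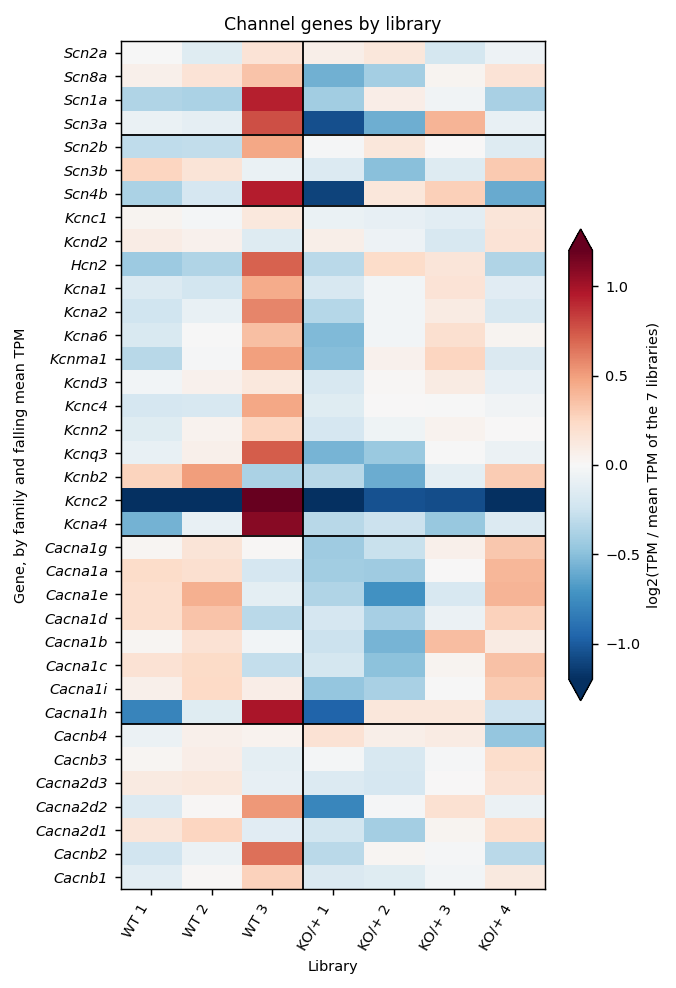
Level of each channel gene in each library as log2(TPM / mean TPM of the 7 libraries), red above and blue below the mean, by family in order of falling mean TPM. The column of WT replicate 3 is red for most sodium and potassium channel genes and pale or blue for most calcium channel pore genes. The color scale ends at 1.2 on either side, which Kcnc2 exceeds.

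WT replicate 3 was the highest library for 21 of the 36 channel genes (58.3%), as it was for 23.7% of the 16813 genes tested. It held all 4 sodium channel pore genes, 11 of 14 potassium and HCN genes and 2 of 3 sodium beta subunit genes at their highest, but 1 of 8 calcium channel pore genes. For 12 channel genes it exceeded the mean of the other 6 libraries by over 1.5 times (33.3%, beside 8.77% of all genes). KO/+ replicate 1 alone was the lowest library for 16 of the 36 (44.4%), beside 27.3% of all genes. These counts describe the libraries and have no test.

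Values of markers moved with WT replicate 3. The brainstem list summed to 11.0 TPM there and to between 4.31 and 6.37 TPM in the other 6 libraries. Its serotonergic marker Tph2 was at 4.10 TPM there against 0.62 to 0.80 TPM elsewhere. The interneuron list was not highest there, with a sum of 1587 TPM beside 1594 TPM in KO/+ replicate 1, 1874 TPM in KO/+ replicate 2 and 1194 to 1388 TPM in the other 4 libraries. Within it Gad1, Gad2, Slc6a5 and Kit were highest in WT replicate 3, and Pvalb, at 1226 TPM, was below KO/+ replicates 1 and 2 (1389 and 1613 TPM). The oligodendrocyte list summed to 13537 TPM in WT replicate 3 and to between 5967 and 11721 TPM elsewhere. The part of these cells in the levels of the channel genes was not tested.

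**Figure D5:**
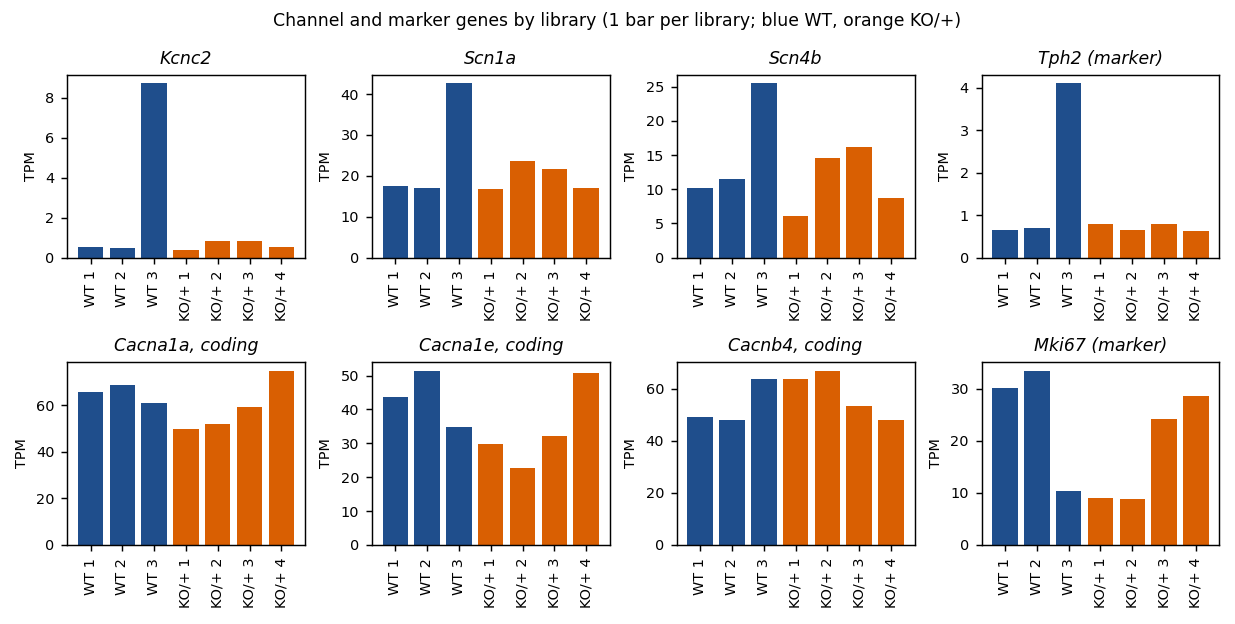
Level in TPM per library (blue WT, orange KO/+): Kcnc2, Scn1a and Scn4b beside the brainstem marker Tph2 in the top row, and coding transcripts of Cacna1a, Cacna1e and Cacnb4 beside the cell cycle marker Mki67 in the bottom row. WT replicate 3 is the highest bar of the top row, and WT replicate 3 and KO/+ replicates 1 and 2 have the 3 lowest bars of Mki67 and the 3 highest of Cacnb4.

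A second order of libraries followed the cell cycle markers, whose 10 genes summed to 336, 365 and 124 TPM in WT and to 138, 128, 301 and 332 TPM in KO/+ libraries. WT replicate 3 and KO/+ replicates 1 and 2 were low in them. For 9 channel genes (Kcnb2, Cacna1a, Cacna1b, Cacna1c, Cacna1d, Cacna1g, Cacna2d1, Cacna2d3 and Cacnb3) these 3 libraries all lay below the other 4, as they did for 23.0% of all genes tested, so the channel genes were near the background. Over coding transcripts it was 7 genes, without Cacna1a and Cacna1g. The opposite order held for Scn2a alone, beside 5.26% of all genes, and over coding transcripts for Scn2a and Cacnb4. Both shares of all genes are of gene totals, and no share was counted over coding transcripts. The granule neuron markers summed to 1684, 1542 and 1536 TPM in WT and to 2157, 2012, 1606 and 1800 TPM in KO/+ libraries. When the score of the cell cycle markers was a covariate, 0 channel genes passed the adjusted threshold, as did 0 of all 16813 genes. In that fit 30 channel genes were negative, beside 48.2% of all genes.

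The 36 genes have 302 annotated transcripts, from 1 to 38 per gene, and 77 of these made up at least 10% of their gene in the mean of all libraries. Of these 72 could be tested and 0 passed edgeR at an adjusted p under 0.05, as did 0% of all 44375 transcripts. At an unadjusted p under 0.05 there were 2, both of Scn8a and described above, beside 2.71% of all transcripts. That count was 7 without WT replicate 1, 6 without WT replicate 2, 4 without WT replicate 3, 1 without KO/+ replicate 1 and 7 without KO/+ replicate 4. The share of all transcripts at that level was not counted in these settings, so the counts cannot be set against a background. Among all genes the number at that level also moved with the library left out, from 180 without KO/+ replicate 1 to 1562 without KO/+ replicate 4. The next smallest p were those of Kcnq3-201 (log2 fold change -0.49, SE 0.22), Cacnb4-203 (0.56, SE 0.26), Scn3a-202 (-1.10, SE 0.52) and Kcnc2-201 (-2.77, SE 1.32). Cacnb4-203 was at 7.64, 7.51 and 12.4 TPM in WT and at 14.3, 15.2, 11.6 and 10.5 TPM in KO/+ libraries, where WT replicate 3 lay among the KO/+ values. Only Scn8a-205 of the 72 had genotypes that did not overlap, beside 4.23% of all transcripts. Kcnc1 was shared between Kcnc1-203 and Kcnc1-201, at means of 55.2% and 44.8% of the gene.

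A wider list of 69 further voltage-gated channel and accessory subunit genes was read from the same fit. Of these 68 were matched by symbol and 59 tested, with 22 positive and 37 negative log2 fold changes (median -0.12), and 0 passed the adjusted threshold in edgeR or in DESeq2. At an unadjusted p under 0.05 there were 1 higher and 6 lower in KO/+, beside 1.25% and 1.90% of all genes. Without WT replicate 3 it was 38 positive and 21 negative, beside 50.6% and 49.4% of all genes, with 4 higher and 0 lower at that level, beside 3.17% and 2.58%. In 4 of the 59 the genotypes did not overlap in CPM, 1 with higher values in KO/+ (Kcnmb4) and 3 with lower (Kcns3, Kcnt2 and Hcn3), beside 2.16% and 1.80% of all genes.

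Kcnn3, a calcium-gated potassium channel gene, had the smallest p of that list (log2 fold change -0.48, SE 0.17; unadjusted p = 0.02), and without WT replicate 3 its log2 fold change was -0.37 (unadjusted p = 0.0662). WT libraries held 7.72, 8.72 and 10.3 CPM of it and KO/+ libraries 5.47, 5.87, 6.33 and 7.91 CPM. KO/+ replicate 4 lay above WT replicate 1. Kcns3, a modifying subunit of Kv2 channels, held 1.52, 1.19 and 2.24 CPM in WT libraries against 1.04, 1.11, 1.03 and 0.88 CPM in KO/+ libraries, without overlap (log2 fold change -0.70, SE 0.25; unadjusted p = 0.0217). Without WT replicate 3 the log2 fold change of Kcns3 was -0.42 (unadjusted p = 0.0997). Kcnv1, another silent subunit, held 0.39, 0.19 and 1.15 CPM in WT libraries against 0.17, 0.13, 0.29 and 0.10 CPM in KO/+ libraries, and WT replicate 3 was again the highest (log2 fold change -1.72, SE 0.64, and -0.73 without that library, where the unadjusted p was 0.202). Kcnmb4, an accessory subunit of BK channels, named after its values were seen, was the 1 gene of the list with higher values in KO/+ at an unadjusted p under 0.05 (log2 fold change 0.21, SE 0.09; unadjusted p = 0.0371). WT libraries held 50.4, 45.6 and 49.3 CPM of it and KO/+ libraries 62.0, 58.4, 52.4 and 52.2 CPM, and without WT replicate 3 its unadjusted p was 0.0525. All 4 had an edgeR adjusted p of 0.957 with all libraries.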

How the data were processed

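Polyadenylated RNA of 7 cerebella (3 WT, 4 L3mbtl3 KO/+) was sequenced as directional libraries, per the labels' protocols. Listed in the submitters' processing notes are the builds GRCm38 and mm10 and the tools RSEM 1.3.1, STAR 2.5.2a, Trimmomatic 0.39 and bcl2fastq, while for the strand setting of the counting the sources used here give nothing. RSEM's expected count for each gene and transcript was deposited by the authors unnormalized. TPM, deposited by the authors in the same files, is divided by transcript length and scaled per library. A transcript's percent of its gene is an additional column, named in the deposited files' headers. The 6 tables of the whole series (42 sample columns) were not used.

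Expected counts were rounded. Genes passing filterByExpr (16813) were TMM-scaled (0.978 to 1.02) and compared by edgeR 4.0.16 (quasi-likelihood, robust, R 4.3.3) with Benjamini-Hochberg adjustment over all genes, and transcripts (44375) likewise, without modelling the uncertainty of read assignment. Total counts per library ran from 29248342 to 43761782, and the common biological coefficient of variation was 18.7%. No pair of libraries agreed within sampling noise. Alternatives used DESeq2 1.42.0 and limma 3.58.1, and the procedure was tested on simulated data. There it recovered 32.8% of genes changed 1.5-fold, 70.1% of those changed 2-fold and 95.5% of those changed 4-fold, with 9 false calls. Most changes of 1.5-fold would thus be missed.

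Positions, transcript types and exons come from GENCODE M21 (GRCm38). Exon shares are summed TPM of transcripts with an exon, as a percent of those with and without it. The members, gene lists and exons were chosen with earlier results of these data known. Values in every library are given for members with an unadjusted p under 0.05, for the 2 of each family with the smallest p and the 2 with the highest TPM, and for those whose genotypes do not overlap, as well as for Scn1a, Kcnb2 and others that show the order of libraries, named after their values were seen. A few marker values and exon sequences are not reported here.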

Additional observations from a re-analysis of the deposited data

Results flagged for a closer look

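Among the 36 channel genes, 1 had a library far from the others of its genotype. Kcnc1 was at 115 TPM in KO/+ replicate 4, where the next KO/+ library was at 98.2 TPM, a gap of 0.854 of the range of the 4 KO/+ libraries, beyond Dixon's 95% critical value for 4 samples. WT libraries reached 114 TPM. Chance gives such a value in about 1 of 20 groups, and groups of 3 WT libraries were not examined in this way.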

How the results depend on the processing

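The count of channel genes past the adjusted threshold was 0 in every setting run (DESeq2, RLE or no scaling, other filters, limma-voom, limma-trend, the replicate block, the cell cycle score, a threshold of 0.1 and leaving out each library), as it was for the wider list and, in the settings run on transcripts, for the transcripts. The number at an unadjusted p under 0.05, which was 3, was 1 with limma-voom, 0 with limma-trend on log2 TPM at a pseudocount of either 1 or 0.1, and between 0 (without KO/+ replicate 1 or 2) and 7 (without KO/+ replicate 4) when 1 library was left out. Among all genes that number was 530 in edgeR with all libraries, 497 with limma-voom and 442 and 441 with limma-trend. It was 180 without KO/+ replicate 1 or 2 and 1562 without KO/+ replicate 4. The number of negative log2 fold changes was 31, beside 51.2% of all genes. It was 18 when WT replicate 3 was left out (49.4% of all genes) and reached 32 when WT replicate 1 was (51.2% of all genes). Under limma-trend it was 35, where 62.6% and 62.5% of all genes were negative. Under limma-trend with those pseudocounts, Scn2a was at -0.0220 and -0.0224, Kcnd2 at -0.00195 and -0.00202, Cacnb3 at -0.00386 and -0.00400, and Cacnb4 at -0.0410 and -0.0417. With the cell cycle score Scn2a was at -0.000686. When 1 library was left out, log2 fold changes ran from -0.0295 to 0.15 for Scn2a, from -0.10 to 0.36 for Scn2b, from -0.66 to 0.12 for Scn4b, from -0.0841 to 0.00208 for Kcnc1, from -2.91 to 0.25 for Kcnc2, from -0.0104 to 0.12 for Kcnd2, from -0.13 to 0.0791 for Cacna1g, from -0.20 to 0.00939 for Cacnb1 and from -0.0331 to 0.0716 for Cacnb3. The causes were not tested.

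Same-numbered WT and KO/+ libraries did not deviate together (r = 0.0813, -0.278 and -0.0622 over all genes), so the numbers are not taken as pairs. With the replicate block 6 channel genes had an unadjusted p under 0.05, beside 1029 of the 16813 genes tested. Of the channel genes 29 were negative, beside 50.3% of all genes, and Cacnb3 was at -0.0217. With that block 6 channel transcripts had an unadjusted p under 0.05 where 2 had without it. The share of all transcripts at that level was not counted with the block, while the number of all genes went from 530 to 1029.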
